A study of Homo sapiens with 4 samples.

Results

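The 8 genes described here encode the classical subunits of the AP-1 transcription factor, namely FOS, FOSB, FOSL1 and FOSL2 of the FOS family and JUN, JUNB and JUND of the JUN family, together with ATF3. They were chosen by name, with earlier results of these data known, among 64486 annotated genes of which 20176 are protein-coding. All 8 were found in the GENCODE annotation of GRCh37. The data are native H3K4me3 ChIP-Seq, without crosslinking, from MDA-MB-231, a cell line of triple-negative breast cancer. Cells were untreated or treated with Tat-SID at 1 μM (labelled SID 1uM) or 2.5 μM (SID 2.5uM) for 3 days, and each condition was sequenced as 1 library, beside 1 library of input DNA. Tat-SID is a cell-penetrating peptide that carries the SIN3 interaction domain of MAD and competes for the PAH2 domain of the corepressor SIN3. The comparison is with untreated cells and not with the scrambled peptide, so effects of any peptide and of this sequence cannot be told apart.

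AP-1 is a dimer of basic leucine zipper (bZIP) proteins that binds the sequence TGANTCA or the related TGACGTCA. JUN proteins pair with themselves, with FOS proteins or with ATF proteins, whereas FOS proteins need a partner from the JUN family. Most of these genes are immediate early genes, which cells switch on within minutes of a growth or stress signal, and FOSL1 (FRA1) is well known as an abundant AP-1 subunit in invasive, mesenchymal-like breast cancer cells. H3K4me3 is a histone mark found mainly around the transcription start sites (TSS) of active genes.

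The authors deposited the positions of regions in which H3K4me3 changed with treatment, 141 regions with reduced H3K4me3 at 1 μM, 2063 with reduced H3K4me3 at 2.5 μM and 3 with increased H3K4me3 at 2.5 μM. The lists hold no read number, fold change or FDR, and sequencing depth was not analysed here, so a gene can only be described as having or not having a listed region. With 1 library per condition no difference was tested, and a gene without a region did not pass the authors' threshold, which does not show that its H3K4me3 stayed the same. Both reduced lists share the untreated library. A gene is said here to have a reduced region when one lay within 3 kb of its gene start, the 5′ end of the gene on its strand, or of the TSS of any of its transcripts.

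Of the 8 AP-1 genes, FOSL1 had such a region at both doses, FOSL2 and JUN had one at 2.5 μM only, and FOS, FOSB, JUNB, JUND and ATF3 had none at either dose. This is 1 of 8 genes at 1 μM, where 0.360% of all annotated genes and 0.674% of protein-coding genes had a reduced region. At 2.5 μM it is 3 of 8 genes, where 5.30% of all annotated genes and 10.8% of protein-coding genes had one. These shares also count any genes without H3K4me3 in untreated cells, which could not be listed as reduced. Because the 8 genes were chosen with earlier results known, the counts describe these genes and nothing was tested from them. Within the FOS family the genes with a reduced region were both FOS-like genes, FOSL1 and FOSL2, and within the JUN family it was JUN. None of the 8 genes lay on a chromosome that carries one of the 3 regions with increased H3K4me3.

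**Figure D1:**
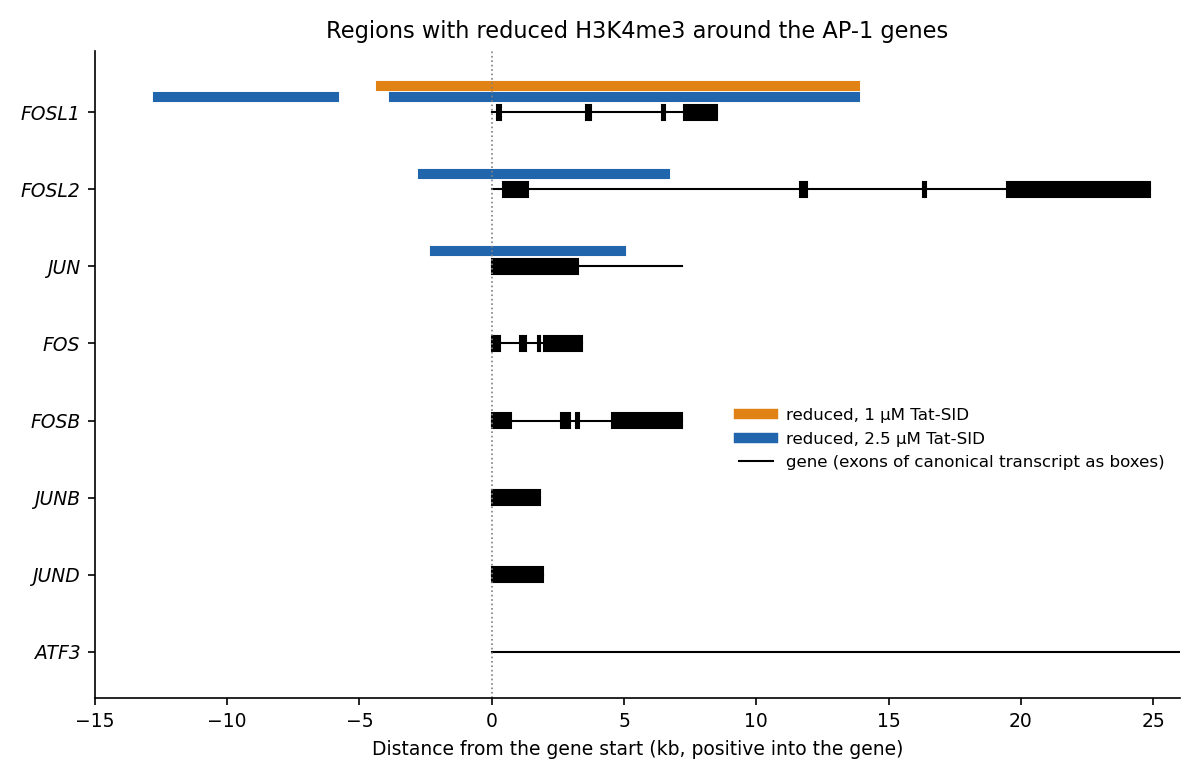
Map of the 8 AP-1 genes aligned at the gene start (x axis, distance in kb, positive into the gene), with regions reduced at 1 μM (orange) and 2.5 μM (blue) drawn to scale above each gene and the exons of the canonical transcript as black boxes (ATF3 runs beyond the right edge). FOSL1 carries the 18249 bp and 17749 bp regions over its whole length and a further region of 6949 bp upstream, FOSL2 and JUN carry 1 region each over the start, and the other 5 genes carry none in this window.

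The bases just upstream of the FOSL2 and JUN starts, which lay in reduced regions, are shown first, to give the sequence the listed change covers, and those of FOS and JUNB follow as members of the same families whose starts lay in none. Each is the 250 bases before the gene start, read 5′ to 3′ on the strand of the gene from GRCh37. Capitals mark matches, on either strand, to the TATA box written TATAAA, the CCAAT box of promoters and the GC box written GGGCGG. A GC box on the other strand reads CCGCCC, the reverse complement.
FOSL2, chr2:28615065-28615314, plus strand: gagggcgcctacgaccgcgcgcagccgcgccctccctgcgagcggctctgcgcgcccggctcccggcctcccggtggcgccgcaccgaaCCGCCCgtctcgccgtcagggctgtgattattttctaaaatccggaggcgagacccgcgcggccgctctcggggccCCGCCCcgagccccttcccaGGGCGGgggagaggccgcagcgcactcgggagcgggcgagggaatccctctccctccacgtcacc
JUN, chr1:59249721-59249970, minus strand: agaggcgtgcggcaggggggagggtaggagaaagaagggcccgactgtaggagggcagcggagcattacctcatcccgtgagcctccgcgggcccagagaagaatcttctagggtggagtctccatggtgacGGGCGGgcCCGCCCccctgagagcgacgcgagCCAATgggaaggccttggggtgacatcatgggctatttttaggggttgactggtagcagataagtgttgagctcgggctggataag
FOS, chr14:75745279-75745528, plus strand: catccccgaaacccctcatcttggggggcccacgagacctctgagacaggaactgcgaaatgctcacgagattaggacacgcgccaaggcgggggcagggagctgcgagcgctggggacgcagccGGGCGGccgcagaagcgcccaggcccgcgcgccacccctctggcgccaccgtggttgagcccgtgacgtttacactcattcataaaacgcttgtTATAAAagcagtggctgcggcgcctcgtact
JUNB, chr19:12902050-12902299, plus strand: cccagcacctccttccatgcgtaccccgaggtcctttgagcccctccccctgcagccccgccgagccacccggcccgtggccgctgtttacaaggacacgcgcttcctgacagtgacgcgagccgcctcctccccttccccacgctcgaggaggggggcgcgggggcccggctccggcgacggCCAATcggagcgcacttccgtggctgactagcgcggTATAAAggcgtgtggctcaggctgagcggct
The FOSL2 sequence holds GC boxes and no TATAAA or CCAAT, and the JUN sequence holds GC boxes and 1 CCAAT. FOS and JUNB each hold a TATAAA that begins at -31 from the start. FOS also holds 1 GC box, and JUNB also holds 1 CCAAT. Of the members not printed, FOSL1 holds GC boxes and no TATAAA or CCAAT in these bases. JUND, whose start lay in no reduced region, likewise holds GC boxes and no TATAAA, with 1 CCAAT.

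FOSL1 encodes FRA1, a FOS-family subunit without the strong transactivation domain of FOS. The gene lies on the minus strand of chromosome 11 (ENSG00000175592, chr11:65659520-65668044, 8525 bp). At 2.5 μM the reduced region spanned chr11:65654151-65671899, a length of 17749 bp, and covered 100% of the gene with all 4 exons of the canonical transcript. It began 3855 bp upstream of the gene start and ended 13893 bp downstream of it, 5369 bp beyond the end of the gene. At 1 μM the region had the same downstream edge and reached 500 bp farther upstream, to chr11:65654151-65672399, a length of 18249 bp. The TSS of all 5 annotated FOSL1 transcripts lay inside at both doses.

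The FOSL1 region was long for its list. Among the 2063 regions reduced at 2.5 μM, with a median of 4949 bp, it ranked 4 in length, and it was the longest of the 1760 regions within 3 kb of a TSS of a protein-coding gene. At 1 μM it ranked 5 among 141 regions, with a median of 8599 bp, and 2 among the 117 within 3 kb of a protein-coding TSS. A whole gene lay inside the reduced region for 108 of the 1833 protein-coding genes whose gene start was covered at 2.5 μM (5.89%), and FOSL1 was one of them.

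The region over FOSL1 was not FOSL1's alone. CCDC85B, a short gene of the opposite strand, lay wholly inside (chr11:65658144-65659106), with its start 9900 bp downstream of the FOSL1 start. FIBP, which encodes a protein that binds acidic fibroblast growth factor, had its start 12042 bp downstream of the FOSL1 start and 38.6% of its length inside. The lists do not say where in the region the loss of H3K4me3 was largest, so the 3 starts cannot be told apart. A second region reduced at 2.5 μM, of 6949 bp (chr11:65673851-65680799), lay on the other side of the FOSL1 start, 5.81 kb upstream and 1951 bp from the edge of the first. It held no annotated TSS and overlapped no annotated gene, and at 1 μM it was not listed.

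FOSL2 encodes FRA2, the closest relative of FRA1. It lies on the plus strand of chromosome 2 (ENSG00000075426, chr2:28615315-28640184, 24870 bp). The region reduced at 2.5 μM, chr2:28612551-28621999, was 9449 bp long and ranked 96 among the 2063 regions in length. It reached 2764 bp upstream and 6684 bp into the gene and covered 26.9% of the gene, which is exon 1 of the canonical transcript and part of intron 1. The TSS of all 4 FOSL2 transcripts lay inside, as did the starts of the antisense RNA gene FOSL2-AS1 and of a further long non-coding RNA gene (ENSG00000270640). At 1 μM the nearest reduced region was 26.7 Mb away.

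JUN encodes the founding subunit of AP-1, which can bind DNA as a homodimer. It lies on the minus strand of chromosome 1 (ENSG00000177606, chr1:59242517-59249720, 7204 bp). The region reduced at 2.5 μM, chr1:59244701-59251999, was 7299 bp long and ranked 286 in length. It reached 2279 bp upstream and 5019 bp into the gene, covered 69.7% of the gene and held the only exon of the canonical transcript whole. The TSS of all 3 JUN transcripts lay inside, and upstream of them, in the same region, the divergent long non-coding RNA gene LINC01135, whose start was at -336 bp from that of JUN, and another non-coding RNA gene (ENSG00000290013). At 1 μM the nearest reduced region was 7.81 Mb away.

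In each of these 4 regions the reach into the gene was greater than the reach upstream. That was also so for 1423 of the 1833 protein-coding genes with a covered gene start at 2.5 μM (77.6%), with a median reach of 1742 bp upstream and 3207 bp downstream. FOSL1, FOSL2 and JUN lay above both medians.

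**Figure D2:**
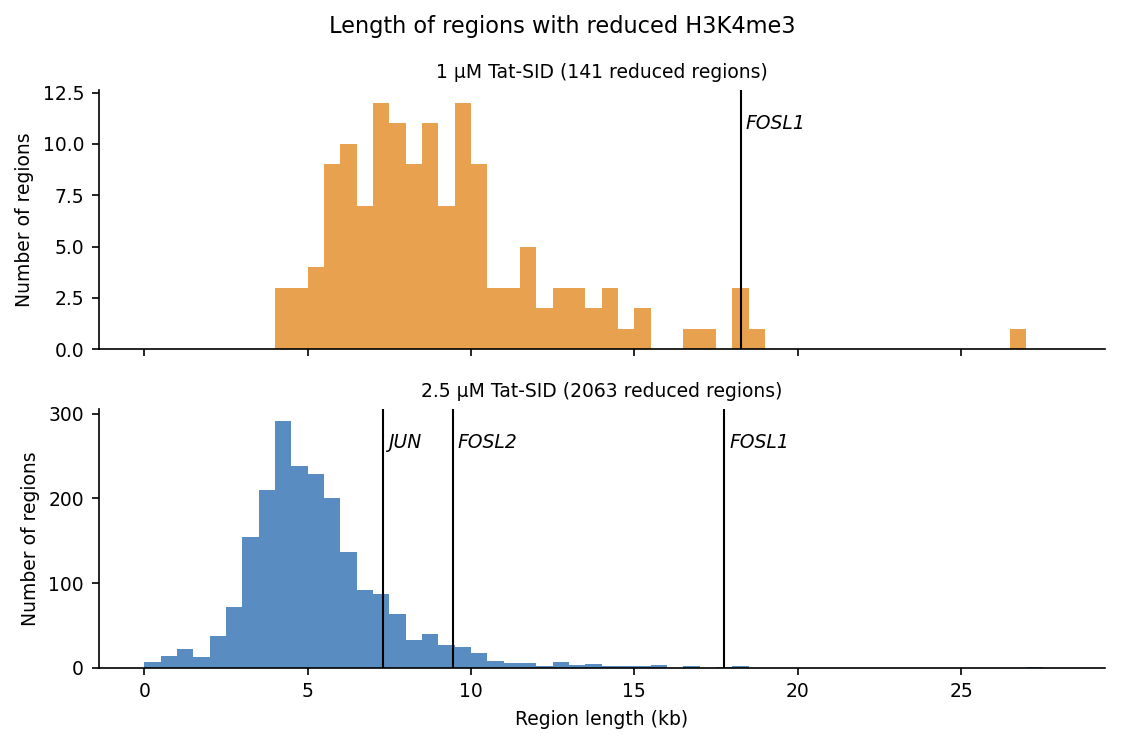
Histograms of the length (x axis, kb) of the 141 regions reduced at 1 μM (upper panel) and the 2063 reduced at 2.5 μM (lower panel), with the number of regions on the y axes and the regions over AP-1 genes as black lines. The FOSL1 region lies in the far tail at both doses, and the FOSL2 (9449 bp) and JUN (7299 bp) regions lie above the median of 4949 bp at 2.5 μM.

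The other 5 AP-1 genes had no reduced region within 50 kb. FOS, the partner of JUN in the best known AP-1 dimer, lies on chromosome 14 (chr14:75745529-75748933), and its nearest reduced region at 2.5 μM was 513 kb away, at YLPM1. ATF3, a stress-induced member of the ATF family, lies on chromosome 1 (chr1:212738676-212794119) and has TSS spread over 49844 bp, with the canonical one 43427 bp inside the gene. The reduced region nearest to any of them was 526 kb away, at DTL and INTS7. JUND, the most steadily expressed of the JUN genes (chr19:18390504-18392432), was 873 kb from a reduced region, at BST2 and MVB12A. At 1 μM the nearest reduced regions were 9.86 Mb from FOS and 8.36 Mb from ATF3.

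JUNB, a JUN protein that often opposes JUN at its targets (chr19:12902300-12904129), and FOSB, which encodes full-length and short splice forms (chr19:45971253-45978437), were the nearest of the 5. Their distances at 2.5 μM were 52.4 kb for JUNB, to a region at GET3 and TRIR, and 59.9 kb for FOSB, to a region at POLR1G and PPP1R13L. For comparison, the 17920 protein-coding genes without a reduced region, on the chromosomes that carry any at 2.5 μM, were a median of 475 kb from one, with quartiles of 176 kb and 1120 kb. FOS, ATF3 and JUND were within these quartiles, and JUNB and FOSB were closer than the lower one. No AP-1 gene lay between 3 kb and 50 kb from a region, so none was near the limit of the definition.

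**Figure D3:**
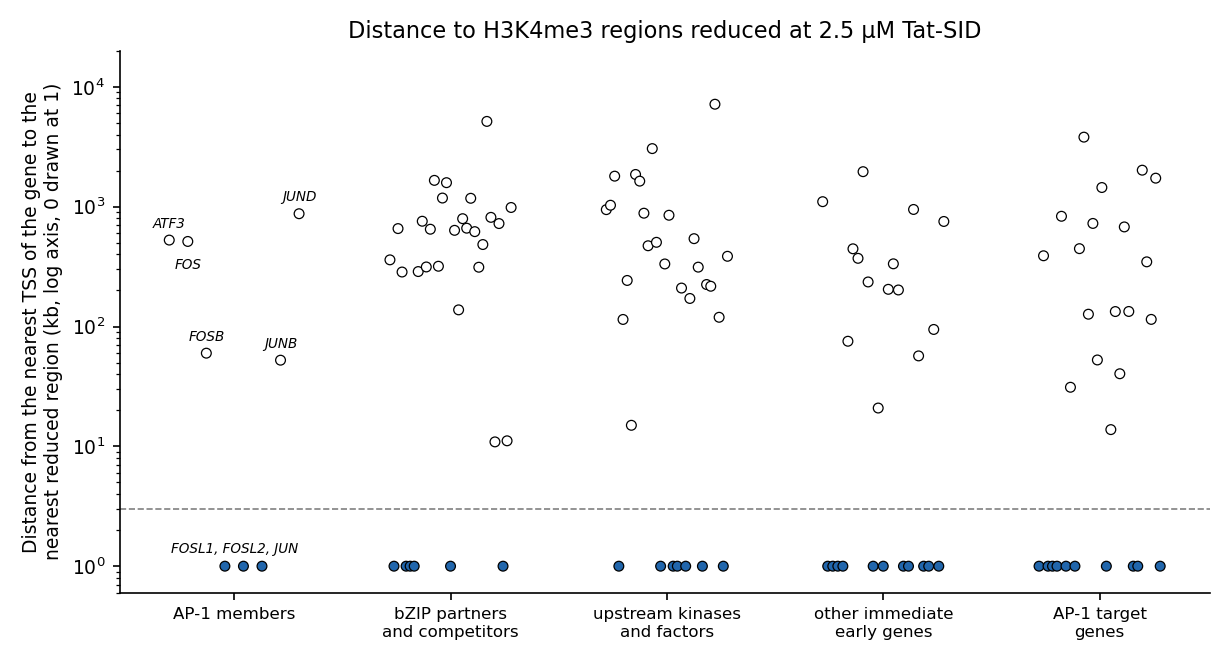
Distance from each gene's nearest TSS to the nearest region reduced at 2.5 μM (y axis, kb, log scale, with 0 drawn at 1) for the AP-1 genes and the 4 related lists, 1 point per gene, filled where the gene had a region within 3 kb (dashed line). FOSL1, FOSL2 and JUN sit at 0, and the other AP-1 genes lie between 52.4 kb and 873 kb.

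Chromosomes differed in how many genes had a reduced region. FOSB, JUNB and JUND all lie on chromosome 19, where 2.91% of 1480 protein-coding genes had one at 2.5 μM and no region was listed at 1 μM. The shares at 2.5 μM were 12.3% on chromosome 1 (JUN and ATF3), 13.6% on chromosome 2 (FOSL2), 8.28% on chromosome 11 (FOSL1) and 17.0% on chromosome 14 (FOS). Whether the chromosome bears on which AP-1 genes had a region was not tested.

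Promoter base composition, which the choice of genes did not use, was examined next. In the 1 kb on each side of the gene start, GC content was 61.8% for FOSL1, 64.5% for FOSL2 and 64.3% for JUN, against a median of 55.0% over 20098 protein-coding genes of the same chromosomes and 54.0% over the 2178 with a region at 2.5 μM. It was 59.9% for FOS, 57.2% for FOSB, 64.5% for JUNB, 73.5% for JUND and 45.9% for ATF3. The groups with and without a region overlapped. The CpG ratio (observed over expected), which is low where methylated CpG has been lost over evolution, was 0.791 for FOSL1, 0.961 for FOSL2 and 0.814 for JUN, with a median of 0.612 over protein-coding genes and of 0.726 over those with a region at 2.5 μM. It was 0.770 for FOS, 0.715 for FOSB, 0.719 for JUNB, 0.889 for JUND and 0.157 for ATF3. All but ATF3 were above the median of protein-coding genes in both measures in this window, the CpG ratio of FOSL2 above 99.3% of protein-coding genes and the GC content of JUND above 99.2%. The CpG ratios of FOSB and JUNB were slightly below the median of genes with a region. From 250 bases before to 50 bases after the gene start, the CpG ratio of JUN was 0.619, below the median of 0.694 over protein-coding genes and of 0.808 over those with a region. The ATF3 values are those of its upstream gene start. From 250 bases before to 50 bases after its canonical TSS, GC content was 65.7%, in place of 51.3% in the same window at the gene start. The CpG ratio there was 0.808, in place of 0.207.

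**Figure D4:**
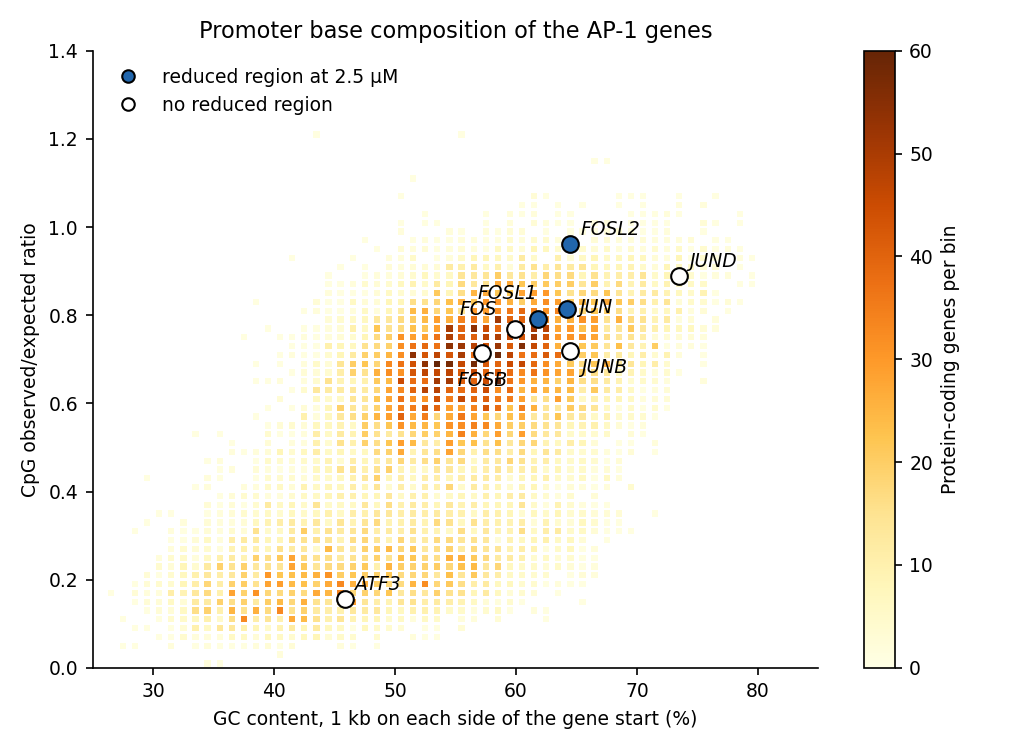
GC content (x axis, %) against the observed to expected CpG ratio (y axis) within 1 kb of the gene start, with the colour of each bin giving the number of protein-coding genes and the AP-1 genes as circles, filled where a region was reduced at 2.5 μM. FOSL1, FOSL2 and JUN lie among FOS, FOSB, JUNB and JUND in the CpG-rich cloud. ATF3 (45.9% GC), drawn at its upstream gene start and not at its canonical TSS, lies apart.

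Short motifs were counted from 250 bases before to 50 bases after the gene start, on both strands. TATAAA was present in 3 of the 8 genes, FOS, FOSB and JUNB, and in 10.9% of 20098 protein-coding promoters. With the canonical TSS in place of the gene start it was present in these and in ATF3, which is 4 of the 5 genes without a reduced region and 0 of the 3 with one, a count made after the values were seen. Over protein-coding genes, TATAAA was present at the canonical TSS of 9.82%, and of 8.22% of those with a region at 2.5 μM. GGGCGG was present in 7 of the 8, all but JUNB, and in 52.2% of promoters. With the canonical TSS it was present in 6 of the 8, all but JUNB and ATF3. The shares there were 61.0% of protein-coding promoters and 71.7% of those with a region at 2.5 μM. Around the gene start, CCAAT was present in JUN, JUNB and JUND and in 35.8% of promoters. JUND held the single TGACGTCA, which began at -200 from its start, a motif in 2.29% of promoters. The CArG box, the site of serum response factor, was found in 0 of the 8 windows and in 1.24% of promoters. Sites more than 250 bases upstream were outside these windows, so the count does not show that the genes lack a CArG box. TGANTCA was found in 0 of the 8 windows around the gene start (6.37% of promoters) and in 2 of the 8 around the canonical TSS (5.43% of promoters), those of FOSL1 and FOSL2. Among protein-coding genes with a region at 2.5 μM the shares were 6.11% and 4.68%, in the same order. A match of letters is a description and not a bound site.

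AP-1 genes are known to be regulated by AP-1 itself, so the TGANTCA matches inside the reduced regions are given with 7 bases on each side, as read on the strand of the gene. Capitals mark the motif. Only exact matches to TGANTCA are listed, so variant sequences, such as the tgacatca in the JUN promoter sequence above, are left out.
FOSL1, chr11:65664762-65664768 for the 7 bases, minus strand: aatgataTGAGTCAgtatttg
FOSL1, chr11:65666857-65666863 for the 7 bases, minus strand: cggcggcTGAGTCAcccgggg
FOSL1, chr11:65667854-65667860 for the 7 bases, minus strand: gcgcgggTGAGTCAgaaccca
FOSL2, chr2:28615729-28615735 for the 7 bases, plus strand: attgtagTGACTCAtctcggg
JUN, chr1:59244894-59244900 for the 7 bases, minus strand: agttccaTGACTCAaaaaaaa
JUN, chr1:59245834-59245840 for the 7 bases, minus strand: cactaatTGAGTCAgggctgt
JUN, chr1:59251767-59251773 for the 7 bases, minus strand: cagaaaaTGATTCAgggcaac
In FOSL1, the first 2 lie in intron 1, at 3276 bp and 1181 bp downstream of the gene start, and the third lies across the canonical TSS. The FOSL2 match lies 4 bases downstream of the canonical TSS. Of the 3 in the JUN region, 2 lie beyond the end of the canonical transcript and 1 lies upstream, at -2053 bp from the gene start. The density was 0.169 matches per kb in the FOSL1 region at 2.5 μM, 0.106 in FOSL2 and 0.411 in JUN. Over the 2063 regions the median was 0.267 per kb, with quartiles of 0 and 0.468, so all 3 regions lay between the quartiles. At 1 μM the FOSL1 region had 0.164 per kb, below the lower quartile of 0.190 over the 141 regions, which had a median of 0.333.

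Reduced regions were then counted at genes that work with AP-1. Of these, 6 of 31 bZIP partners and competitors (19.4%) had one at 2.5 μM and 1 of 31 at 1 μM. BACH1, a repressor that pairs with small MAF proteins, had a region at both doses, of 7249 bp at 1 μM and 6949 bp at 2.5 μM, at an internal TSS and not at the gene start. The others at 2.5 μM were CREB1 (5799 bp), NFE2L2 (5649 bp), the regulator of antioxidant genes, and the JUN partners ATF7 (3949 bp) and ATF2 (3349 bp), with ATF6 (3449 bp), a sensor of protein folding stress. The median length over these 6 was 4799 bp, whereas that over the 3 AP-1 genes was 9449 bp, and over the 2178 protein-coding genes with a region it was 5149 bp.

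Of 30 kinases and factors upstream of AP-1, 7 had one at 2.5 μM (23.3%) and 0 did at 1 μM. The longest were at MEF2C (7049 bp), a transcription factor that activates JUN, ELK3 (6899 bp), a ternary complex partner of serum response factor, MAP3K1 (6049 bp), a kinase at the head of the JNK cascade, and MAPK10 (5449 bp), which encodes JNK3. RPS6KA3 (4599 bp), which encodes the ERK-activated kinase RSK2, and MAPK14 (4399 bp), which encodes p38α, followed.

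Of 25 other immediate early genes, 11 had one at 2.5 μM (44%) and 1 did at 1 μM. MCL1, an inhibitor of apoptosis, was on both lists, with 8149 bp at 1 μM and 7749 bp at 2.5 μM. The longest at 2.5 μM were at CCN1 (11549 bp) and KLF6 (10299 bp), then IER2 (9749 bp), the phosphatase gene DUSP1 (8449 bp), which restrains MAP kinases, and DUSP5 (7549 bp), which acts on ERK. The median over the 11 was 7549 bp.

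Of 28 genes known as AP-1 targets, 10 had one at 2.5 μM (35.7%) and 0 did at 1 μM. They included HMGA1 (9299 bp), an architectural chromatin protein, VIM (9099 bp), the intermediate filament of mesenchymal cells, CD44 (8049 bp), F3 (7649 bp), which encodes tissue factor, and the EGFR ligands EREG (6449 bp) and AREG (5399 bp). The median over the 10 was 5924 bp. At 2.5 μM all 4 lists lay above the 10.8% of protein-coding genes, as did the AP-1 genes. That 10.8% is over all protein-coding genes, also any without H3K4me3 in untreated cells, which the deposited positions do not tell apart. The lists were chosen by hand with earlier results known and are small, so these shares describe the lists and nothing was tested from them.

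**Figure D5:**
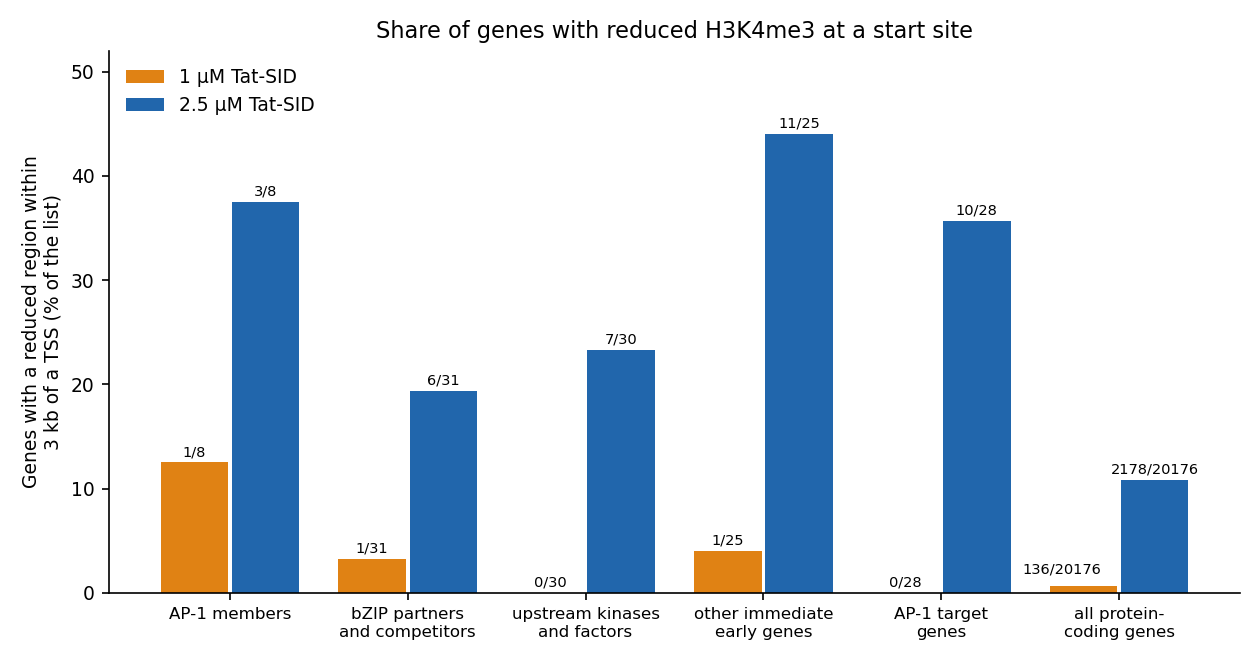
Share of genes with a region reduced near a TSS (y axis, % of the list) at 1 μM (orange) and 2.5 μM (blue) for the 8 AP-1 genes, 4 related lists and all protein-coding genes, with numbers of genes above the bars. At 2.5 μM the shares run from 19.4% to 44% over the 5 lists, beside 10.8% of protein-coding genes.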

How the data were processed

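Native H3K4me3 ChIP-Seq reads were aligned to hg19 (GRCh37) by the authors with Bowtie (version 1.0.0, per the submitters' processing notes), and regions that differed from untreated cells were called with SICER-df, which joins enriched windows across short gaps, so that the length of a region depends on the gap allowed. The threshold is stated less strictly in the study's methods than in its results and in the names of the deposited lists, which also give the direction. The handling of duplicate reads is not given in the sources used here. The deposited lists hold positions only, without any measured value, and increases at 1 μM are not analysed here. Every region ended within its GRCh37 chromosome.

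Gene models were those of GENCODE release 44 on GRCh37. Intervals were taken as BED positions and converted to 1-based ones. For each gene, the smallest distance from its gene start or any transcript TSS to a region was taken, and 3 kb or less counted as having one. The canonical transcript is that of Ensembl. Distances, merging and motif search were checked on simulated data.

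The AP-1 genes and the 4 related lists were chosen with earlier results of these data known. The genes named were all 8 AP-1 genes, every gene with a TSS inside a region that holds an AP-1 gene's TSS, and from each related list every gene with a region at 1 μM and the 6 with the longest at 2.5 μM. Genes at the nearest regions were named after their values were seen. With 1 library per condition no test was made. Alternatives changed the TSS window (1 kb, 10 kb or the TSS base itself), the TSS used, the minimum length (1000 bp), merging (3000 bp) and the promoter window, and the canonical TSS window was added after the data were seen. Some items are not reported here. Tools were pysam 0.24.0, pandas 2.3.3 and numpy 2.4.6 under Python 3.11.15.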

Additional observations from a re-analysis of the deposited data

How the results depend on the processing

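With 1 library per condition no replicate could be left out, and the limit of every statement is that positions carry no size of change and no read numbers. In the window from 250 bases before to 50 bases after the gene start, the CpG ratio of JUN was below the median of protein-coding genes (0.619 against 0.694), whereas within 1 kb it was above (0.814 against 0.612). All 16 calls of AP-1 genes (8 genes at 2 doses) were the same under each of the 7 alternatives of window, TSS set, minimum length and merging. These calls could not have changed under such settings. At a called gene every TSS lay inside a region of 7299 bp or more, and the other genes were more than 52 kb from any reduced region. The number of bZIP partners with a region at 1 μM was 0 with the gene start only, in place of 1, since the BACH1 region lies at an internal TSS. At 2.5 μM, with the gene start only, it was 4 in place of 6. The number of upstream kinases and factors was then 6 in place of 7. The number of all genes with a reduced region was 232 at 1 μM, against 132 with the TSS of protein-coding transcripts and 136 with protein-coding genes only, and 3420 at 2.5 μM, against 2116 and 2178 in the same order, because fewer genes are counted. Merging regions within 3000 bp joined the FOSL1 region at 2.5 μM with its upstream neighbour to 26649 bp, in place of 17749 bp. No paired analysis was possible because there was a single library for every condition, without replicate numbers.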

Other observations

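The surroundings of the AP-1 genes differed in the number of reduced regions. Within 500 kb of the FOSL1 start, 2 other regions were reduced at 2.5 μM beside those already described, over the long non-coding RNA genes NEAT1 (12649 bp, 469 kb away) and MALAT1 (12749 bp, 392 kb away), which encode abundant nuclear RNAs. The MALAT1 region was also listed at 1 μM, with 12549 bp. Of the 43 other protein-coding genes within 500 kb of FOSL1, 2 had a reduced region at 2.5 μM, and these were FIBP and CCDC85B, in the FOSL1 region itself.

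Within 500 kb of FOSL2, other regions reduced at 2.5 μM were at PPP1CB (6249 bp), a phosphatase subunit, and at BABAM2 and RBKS (4549 bp). Around JUNB, 6 of 47 protein-coding genes had one, among them IER2, another immediate early gene, 357 kb away. Around FOS, JUND and ATF3 no region lay within 500 kb, with 15, 34 and 12 protein-coding genes there, respectively. These genes were named after their values were seen, and no difference between surroundings was tested.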
